A study of Drosophila melanogaster with 30 samples.

Results

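The 8 Hox genes of Drosophila melanogaster were followed through 2 histone marks in 4 groups of larval brain cells. They are lab, pb, Dfd, Scr and Antp of the Antennapedia complex and Ubx, abd-A and Abd-B of the bithorax complex. They were taken by gene symbol, and each of the 8 had 1 entry among the 14284 genes of all 16 deposited tables. Neuroblasts and neurons had been isolated from brains of wandering third-instar (L3) larvae, and their chromatin was cut with micrococcal nuclease before ChIP-seq of H3K4me3 and H3K27me3. Each mark had 2 libraries of type I neuroblasts, 2 of neuroblasts with RNAi against brat, 2 of neuroblasts with RNAi against brat and numb, and 2 of neurons. The type I neuroblasts and the neurons carry no RNAi in their labels. The driver of the RNAi is not given in the sources used here, and no group holds normal type II neuroblasts, the lineage in which loss of Brat is known to give tumours.

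Hox genes encode homeodomain transcription factors that give segments their identity along the head to tail axis, and in each complex their order on the chromosome follows the order of the segments they pattern. Outside their segments they are classical targets of Polycomb repression, in which PRC2 trimethylates H3K27 over broad domains and PRC1 binds that mark, while Trithorax proteins keep active copies on and H3K4me3 marks active gene starts. In the nervous system Antp, Ubx, abd-A and Abd-B are known from the thoracic and abdominal ganglia, where they set lineage size, neuroblast death and neuron type. The central brain is known to be largely free of them, apart from lab, pb and Dfd in its posterior and gnathal parts. Which region of the nervous system was dissected is not stated beyond brain.

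All 8 genes lie on chromosome 3R of build dm3, 7 of them on the minus strand and Dfd on the plus strand. The labial gene lab (FBgn0002522, 3R:2487149-2504312) is the most anterior member and patterns the embryonic head, and pb (FBgn0051481, 3R:2533518-2567785) specifies adult mouthparts. Dfd (FBgn0000439, 3R:2617558-2628153) patterns mandibular and maxillary segments, and Scr (FBgn0003339, 3R:2648842-2675703) patterns the labial and first thoracic segments. Antp (FBgn0260642, 3R:2721975-2824950), the leg-promoting thoracic gene, is the longest at 102976 bases. In the bithorax complex, Ubx (FBgn0003944, 3R:12482345-12560348) patterns the posterior thorax, abd-A (FBgn0000014, 3R:12632936-12655767) the anterior abdomen, and Abd-B (FBgn0000015, 3R:12752932-12797958) the posterior abdomen and genitalia. H3K27me3 reads were counted over the whole gene, and H3K4me3 reads in 501 bases from its outermost start. Antp has 11 annotated transcripts and Abd-B has 6, and H3K4me3 at any start inside a gene was not measured. Another gene model, CG43252, overlaps 1.21% of the length of Antp.

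The libraries held 2461222 to 12258131 reads for H3K4me3 and 15281722 to 25009648 for H3K27me3. H3K4me3 of 8 neuroblast markers summed to 1130 to 1389 CPM (reads scaled to a common library size by TMM) in type I neuroblasts, 605 to 935 with brat RNAi, 635 to 1227 with brat numb RNAi and 218 to 230 in neurons. Summed over 7 neuron markers it was 216 to 452, 165 to 200, 182 to 218 and 454 to 620 CPM in the same order. Of the 7, elav was highest in every library (94.8 to 385 CPM), and 4, 2, 2 and 4 were above the median gene. All 8 neuroblast markers were above it in every group, neurons included. Among these 8, ase was at 156 and 180, 8.41 and 34.1, 103 and 171, and 58.9 and 51.1 CPM in the same order. It was the 1 neuroblast marker that the edgeR test described below called between brat RNAi and type I neuroblasts (beside 0.0987% of all genes). For 8 glia markers the sums were 226 to 299, 143 to 270, 152 to 195 and 114 to 160 CPM, with 2, 1, 1 and 3 above the median gene. Among these loco was highest in every library (22.8 to 243 CPM), and repo was at 5.37 to 14.8 CPM. For 6 hemocyte markers, of which 0 were above the median gene, the sums were 23.3 to 29.2, 37.1 to 53.3, 29.3 to 87.7 and 37.9 to 59.2 CPM. Markers of imaginal discs (7 genes) summed to 76.6 to 184 CPM, with 2 or 3 of the 7 above the median gene in each group, and those of trachea and muscle (5 genes) to 75 to 166 CPM, with 1 of the 5, Mef2, above the median gene in each group. The part of any of these cells in the Hox values was not tested. At the RNAi targets, mean H3K4me3 of brat was 327, 223, 197 and 290 CPM and of numb 18.9, 28.4, 17.9 and 72.0 CPM in the same order of groups, but histone marks do not measure a knockdown. The labels also carry SBa codes of unstated meaning, which differ between the 2 libraries of every group.

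H3K27me3 covered all 8 Hox genes in all 4 groups. Per kb of gene, all 64 values (8 genes in 8 libraries) were above the library's median gene, by 2.51 to 17.1 times, and they ranked between percentiles 97.8 and 99.8 of the genes tested. Of all genes, 8.45% had a mean above 2 times the median gene. Within a library the 8 genes lay close together, since the highest was 1.18 to 1.80 times the lowest. The gene abd-A was highest of the 8 in every library. In bulk samples, fewer cells with a mark and less of it per cell cannot be told apart.

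**Figure D1:**
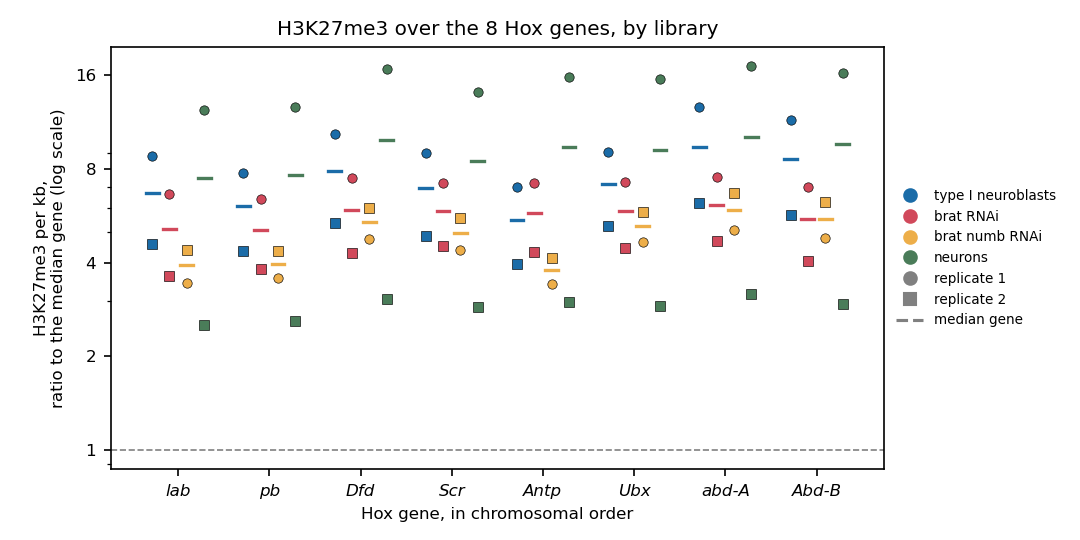
H3K27me3 per kb of gene as a ratio to the median gene of the same library (vertical axis, log scale) for the 8 Hox genes, with 1 point for each of the 2 libraries of a group and a bar at the group mean. All points lie between 2.51 and 17.1, and in neurons the first library is far above the second at every gene.

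The spread between libraries was widest in neurons. In neurons the Hox genes had a median of 15.7 times the median gene in replicate 1 and 2.92 in replicate 2, which are the highest and the lowest of the 8 libraries. In type I neuroblasts the medians were 9.04 and 5.07, with brat RNAi 7.21 and 4.32, and with brat numb RNAi 4.52 and 5.69. In neurons the class of strongly marked genes moved with the Hox genes. For the 709 genes in the top 5% of mean H3K27me3 per kb, the medians were 8.23 and 2.31 times the median gene in neurons and 3.03 to 5.21 in the other 6 libraries. The class was chosen by its mean over these same libraries. It did not follow the Hox genes everywhere, as in replicate 1 its median was 4.68 in type I neuroblasts and 5.21 with brat RNAi, against Hox medians of 9.04 and 7.21. The 3 libraries of SBa code 26 (replicate 1 of type I neuroblasts, brat RNAi and neurons) had the 3 highest Hox medians, and the part of the code in this was not tested.

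Among the genes of the head and first thoracic segment, lab was at 8.83 and 4.59 times the median gene in type I neuroblasts, 6.62 and 3.63 with brat RNAi, 3.44 and 4.41 with brat numb RNAi and 12.4 and 2.51 in neurons (replicates 1 and 2). The gene pb was at 7.78 and 4.36, 6.39 and 3.81, 3.57 and 4.36, and 12.7 and 2.61 in the same order. Both brat numb RNAi libraries of lab were below both type I libraries, whereas those of pb shared a value of 4.36 with them to 3 digits. Dfd was at 10.4 and 5.36, 7.5 and 4.31, 4.77 and 6.0, and 16.8 and 3.06, and Scr at 9.0 and 4.88, 7.21 and 4.52, 4.39 and 5.56, and 14.2 and 2.87. For Dfd and Scr the 2 neuron libraries enclosed all other values, and every other pair of groups overlapped.

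The trunk genes had the same spread. Antp was at 7.00 and 3.96 times the median gene in type I neuroblasts, 7.2 and 4.34 with brat RNAi, 3.41 and 4.14 with brat numb RNAi and 15.9 and 2.99 in neurons. Both brat numb RNAi libraries of Antp were thus below both brat RNAi libraries, and its other groups overlapped. Ubx was at 9.07 and 5.25, 7.29 and 4.46, 4.65 and 5.83, and 15.5 and 2.90 in the same order. The gene abd-A was at 12.6 and 6.21, 7.56 and 4.69, 5.10 and 6.70, and 17.1 and 3.16, and Abd-B at 11.5 and 5.69, 7.01 and 4.05, 4.78 and 6.25, and 16.2 and 2.95. For Ubx, abd-A and Abd-B every pair of groups overlapped. As group means, abd-A ran from 5.90 ± 1.13 with brat numb RNAi to 10.1 ± 9.87 in neurons (SD, n = 2), so neighbours in the order of groups did not differ beyond their spread.

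No Hox gene passed the test for H3K27me3 in any comparison. Counts of all 14182 genes tested were fitted with edgeR's quasi-likelihood test, with Benjamini-Hochberg adjustment over all genes and a threshold of 0.05. Across the 4 groups 0 of 8 members were called, as were 0% of all genes, and 0 members had an unadjusted p under 0.05 against 12.3% of all genes. The smallest adjusted p of a member was 0.574, for Antp. DESeq2 called 0 members too. The p-values measure the spread between these libraries only, since the labels do not say whether libraries of the same group came from different animals.

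Each pair of groups gave the same count for H3K27me3. In each of the 6, 0 members were called by DESeq2. Among all genes DESeq2 did make calls, from 0 between type I and brat numb RNAi neuroblasts to 275 between neurons and brat RNAi. By edgeR, 0 members and 0% of all genes were called in each pair, and 0 members had an unadjusted edgeR p under 0.05. Against that last 0, type I neuroblasts gave 9% of all genes when set against neurons, 5.94% against brat RNAi and 2.96% against brat numb RNAi. The 2 RNAi groups gave 18.8% between them, and neurons gave 22.9% against the first and 5.92% against the second. There were 2 cases of libraries that did not overlap, lab, lower with brat numb RNAi than in type I neuroblasts (29.3% of all genes were lower in this way), and Antp, lower with brat numb RNAi than with brat RNAi (29.7% of all genes). Without replicate 2 of the neurons, edgeR called 2 Hox genes higher in neurons than with brat numb RNAi, pb (log2 fold change 1.67) and Antp (2.06), beside 2.73% of all genes in that fit, with neurons then a single library assumed to vary like the other groups.

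The fitted differences had a common sign at most Hox genes, and the largest of them had wide errors. For neurons against type I neuroblasts all 8 log2 fold changes were above 0, from 0.10 for abd-A to 0.77 for Antp (SE 0.69, edgeR adjusted p = 0.623), with a median of 0.31 against 0.08 for all genes. With brat RNAi 7 of 8 were below 0, from -0.66 for Abd-B to 0.05 for Antp, with a median of -0.36 against -0.01. With brat numb RNAi all 8 were below 0, from -0.78 for lab to -0.45, with a median of -0.58 against -0.02. Neuroblasts of both RNAi groups thus had lower means than type I neuroblasts at 7 of the 8 genes, in comparisons that share the type I libraries. Between the RNAi groups the values ran from -0.59 for Antp to 0.02 for Abd-B. Neurons were 0.56 to 0.81 above brat RNAi on the log2 scale (smallest adjusted p = 0.447, edgeR), and 0.77 to 1.31 above brat numb RNAi, where Antp had the largest value (SE 0.69, adjusted p = 0.915). The signs for neurons did not hold in every fit. Against type I neuroblasts 11 to 15 of 16 alternative fits kept the sign at a gene. Against brat RNAi and against brat numb RNAi 15 of 16 did at every gene. In each neuron comparison the lowest value was below 0 at all 8 genes. These lowest values were -1.51 (abd-A) to -0.81 (Antp) against type I neuroblasts. They were -0.93 to -0.81 against brat RNAi and -0.90 to -0.33 against brat numb RNAi.

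Libraries with the same SBa code allowed some of these differences to be read at a single code, 1 library against 1. At code 26, neurons were above type I neuroblasts by 0.41 (abd-A) to 1.15 (Antp) on the log2 scale, and brat RNAi differed from type I neuroblasts by -0.78 (abd-A) to 0.00 (Antp). Neurons were 0.92 to 1.22 above brat RNAi at that code. At code 68, brat numb RNAi differed from brat RNAi by -0.04 (Antp) to 0.65 (Abd-B). The direction of brat RNAi against type I neuroblasts and of neurons against both was thus the same at code 26 as over all libraries. The code 26 libraries are part of that whole, so this is no separate check. Their neuron library, replicate 1, has a Hox median of 15.7 times the median gene, against 2.92 in replicate 2, which has another code. The direction of brat numb RNAi against brat RNAi was not the same, as 7 of the 8 Hox genes were higher at code 68.

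**Figure D2:**
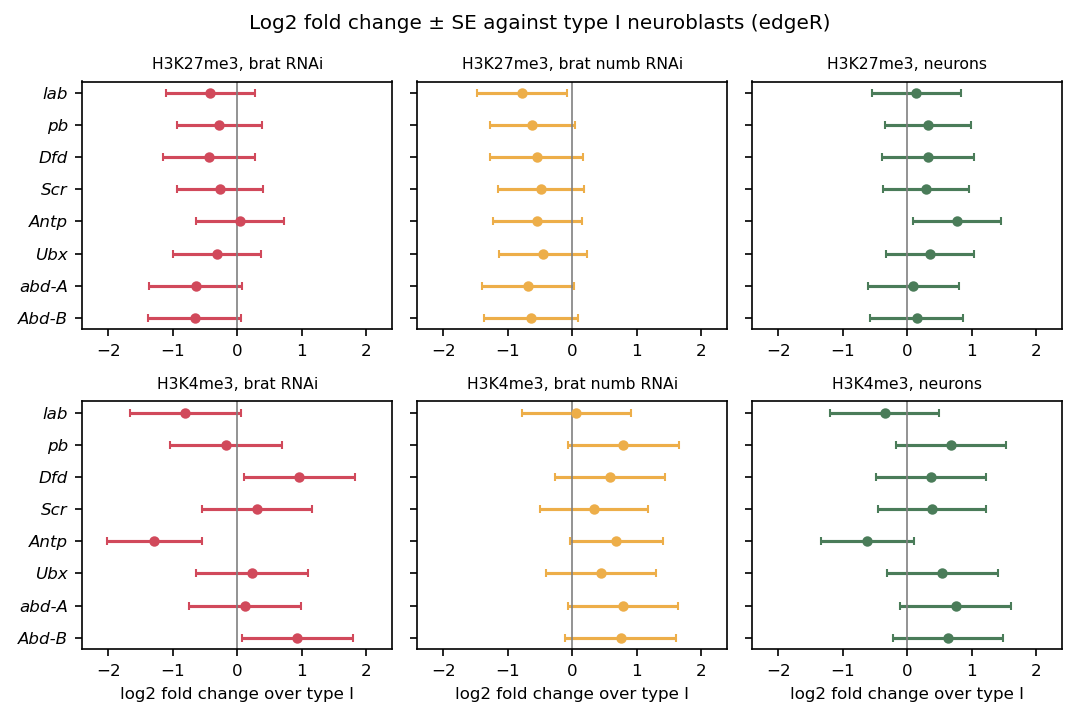
Log2 fold changes of the 8 Hox genes against type I neuroblasts (horizontal axis) with their standard errors (bars), for brat RNAi, brat numb RNAi and neurons and for each mark in panels of their own. For H3K27me3 the values run from -0.78 to 0.77, and for H3K4me3 Antp with brat RNAi lies lowest, at -1.28.

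Because strongly marked genes as a class stood at different heights in different libraries, a second fit was made within the 709 strongly marked genes, a choice made after seeing the data. All 8 Hox genes are among them. Relative to this class the Hox genes had a median log2 fold change of -0.17 in neurons against type I neuroblasts (class median 0.14), -0.32 with brat RNAi (0.00) and -0.26 with brat numb RNAi (-0.01). Among the other pairs it was 0.09 between the 2 RNAi groups (0.06), 0.16 for neurons against brat RNAi (0.06) and 0.03 for neurons against brat numb RNAi (-0.04). In neurons against type I neuroblasts the median Hox gene was thus above 0 among all genes and below 0 within the class.

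Within the class, too, edgeR called 0 of 8 Hox genes in every comparison. Of the class it called 4.51% across the 4 groups. With type I neuroblasts as the base it called 4.51% in neurons, 2.4% with brat RNAi and 0% with brat numb RNAi. Between the 2 RNAi groups it called 2.54%, and in neurons 6.06% against brat RNAi and 4.23% against brat numb RNAi. At an unadjusted p under 0.05 there were 2 members in brat RNAi against type I neuroblasts (11.7% of the class) and 1 in neurons against brat numb RNAi (23.8%). There were 0 across the 4 groups (23.4%), in type I neuroblasts against neurons (23%) or against brat numb RNAi (1.97%), between the 2 RNAi groups (8.74%) and in neurons against brat RNAi (21%). The 2 members were the posterior genes abd-A (log2 fold change -0.58, SE 0.23, adjusted p = 0.385) and Abd-B (-0.60, SE 0.23, adjusted p = 0.383), and the 1 was Antp (0.51, SE 0.21, adjusted p = 0.200). DESeq2 on the same genes called 1 member in neurons against brat numb RNAi, Antp (adjusted p = 0.0363; 0.00459 to 0.641 over the alternatives), beside 20.2% of the class, and 0 in the other comparisons. Calls here turned on the neuron libraries. Without replicate 2 of the neurons, Antp was called higher in neurons than in type I neuroblasts (log2 fold change 0.48, beside 22.4% of the class) and brat numb RNAi (0.68, beside 41.3%). Against brat RNAi, Antp (0.30) and Ubx (0.24) were called higher in neurons, beside 42% of the class. In that fit Antp was called lower with brat numb RNAi than with brat RNAi (-0.38, beside 4.8%), and Abd-B lower with brat RNAi than in type I neuroblasts (-0.52, beside 5.64%). Without replicate 1 of the neurons, abd-A (-0.71), Abd-B (-0.68) and Ubx (-0.46) were called lower in neurons than in type I neuroblasts, beside 11.8% of the class, and abd-A (-0.58) and Abd-B (-0.60) lower with brat RNAi, beside 5.92%.

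The balance among the 8 genes varied less between libraries than their height did, and the largest shifts in it were those of Antp. For each library the H3K27me3 of a Hox gene per kb was divided by the geometric mean of the other 7, a measure chosen after seeing the data and given as a description. Antp was at 0.718 and 0.767 of the others in type I neuroblasts, 1.02 and 1.03 with brat RNAi, 0.785 and 0.751 with brat numb RNAi, and 1.07 and 1.05 in neurons. It ranked last of the 8 genes in all 4 libraries of type I neuroblasts and brat numb RNAi and from rank 3 to rank 5 in those of brat RNAi and neurons. The neuron library with the lowest H3K27me3 and the one with the highest thus gave nearly the same share. As means, Antp was at 0.742 ± 0.0351, 1.03 ± 0.0112, 0.768 ± 0.0246 and 1.06 ± 0.0142 (SD, n = 2) in the same order of groups. Counted above the median gene of the library, the means were 0.700, 1.03, 0.711 and 1.07.

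**Figure D3:**
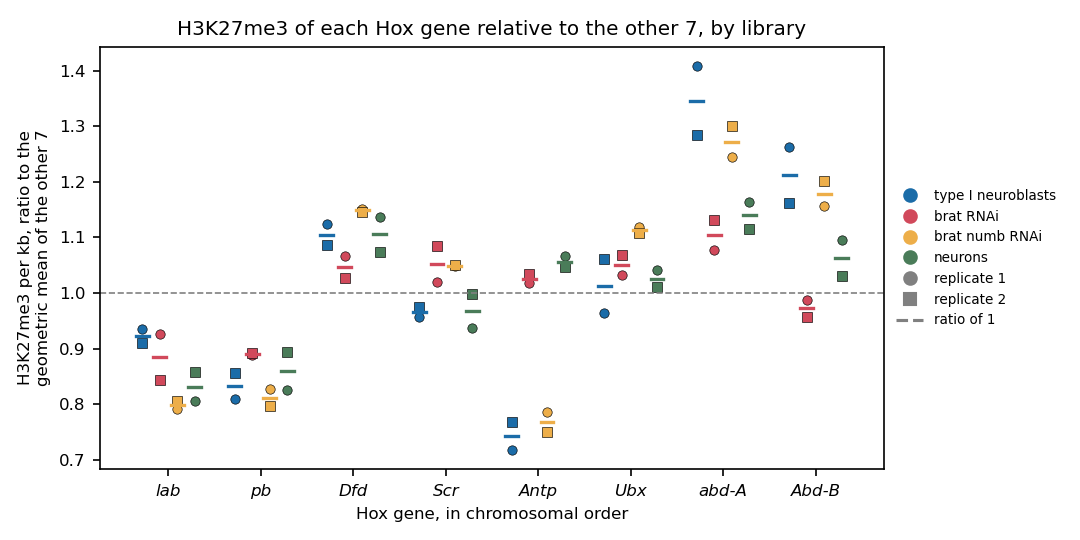
H3K27me3 of each Hox gene per kb divided by the geometric mean of the other 7 in the same library (vertical axis), with 1 point per library and a bar at the group mean. Antp has means of 0.742 and 0.768 in type I and brat numb RNAi neuroblasts and of 1.03 and 1.06 with brat RNAi and in neurons, while abd-A has means of 1.10 to 1.35 in the 4 groups.

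The posterior genes abd-A and Abd-B had their largest shares in type I and brat numb RNAi neuroblasts and their smallest with brat RNAi. The gene abd-A was at 1.41 and 1.28 of the others in type I neuroblasts, 1.08 and 1.13 with brat RNAi, 1.24 and 1.30 with brat numb RNAi, and 1.16 and 1.12 in neurons. Abd-B was at 1.26 and 1.16, 0.987 and 0.957, 1.16 and 1.20, and 1.09 and 1.03. For both genes the brat RNAi and neuron libraries were below all type I libraries, and the brat numb RNAi libraries overlapped with those of type I neuroblasts. Each ratio contains the other genes, so a high share of Antp lowers that of the other 7. The remaining 5 genes kept group means between 0.798 (lab, brat numb RNAi) and 1.15 (Dfd, brat numb RNAi).

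Shifts of this size against the Hox genes were common among strongly marked genes. The share of Antp was 1.42 times as high in neurons as in type I neuroblasts, 1.38 times with brat RNAi against type I neuroblasts, 0.748 times with brat numb RNAi against brat RNAi, and 1.38 times in neurons against brat numb RNAi. Measured the same way, 31.7%, 37.9% and 17.1% of the 709 genes shifted up at least as far as Antp in the 3 of these comparisons where it was higher, and 11.1% shifted down as far in the fourth. In the remaining pairs, brat numb RNAi with type I neuroblasts as the base and neurons against brat RNAi, its share was 1.03 times as high in each, and 78.8% and 40.5% of the class shifted up as far. Some shifts of other members were rarer in the class than that of Antp in the same pair. With brat RNAi against type I neuroblasts, 11.3% shifted down as far as Abd-B and 12.4% as far as abd-A. With brat numb RNAi against type I neuroblasts, 6.49% shifted down as far as lab. In neurons against type I neuroblasts 1 Hox gene was higher without overlap, Antp, beside 36% of the class, and 3 were lower, lab, abd-A and Abd-B, beside 16.9%. With brat RNAi against type I neuroblasts 3 were higher (pb, Scr and Antp, beside 49.6%) and 3 lower (Dfd, abd-A and Abd-B, beside 11%). With brat numb RNAi against brat RNAi 4 were higher (Dfd, Ubx, abd-A and Abd-B, beside 24.8%) and 3 lower (lab, pb and Antp, beside 24%). In neurons against brat numb RNAi 1 was higher (Antp, beside 30.5%) and 5 lower (Dfd, Scr, Ubx, abd-A and Abd-B, beside 29.8%). In neurons against brat RNAi 3 were higher (Dfd, Antp and Abd-B, beside 25%) and 1 lower (Scr, beside 18.3%). With brat numb RNAi and type I neuroblasts as the base, 3 were higher (Dfd, Scr and Ubx, beside 59%) and 1 lower (lab, beside 7.05%). The Hox counts lay on either side of the class shares.

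At the edges of the complexes H3K27me3 was lower at the first gene to the left than at the Hox gene beside it, and it stayed high over several genes to the right. The span from lab to Antp is 337802 bases long and holds 26 genes, and that from Ubx to Abd-B is 315614 bases long and holds 12. All 9 further genes of the bithorax span had a mean above 2 times the median gene in every group. Among them, in type I neuroblasts, were the non-coding RNA genes bxd at 6.75 and iab-4 at 9.54 times the median gene. To the left of Ubx the first gene, modSP, 856 bases away, was at 1.67 times the median gene in type I neuroblasts and 2.30 in neurons, against 7.16 and 9.21 for Ubx itself. Of the 10 genes to the left, 2 were above 2 times the median gene in each group, and the highest was at 2.98, with brat RNAi. To the right of Abd-B the mark went on over VhaM9.7-d (11.4 times in type I neuroblasts, 12.5 in neurons), Actn3 (9.81 and 11.7), Ahcy89E (10.4 and 11.2) and CG18622 (5.78 and 9.999), and it was near the median gene at CG16941, 27143 bases from Abd-B (0.98 and 1.00).

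At the Antennapedia complex the left edge was as close. The gene agt, 1327 bases from lab, was at 1.14 times the median gene in type I neuroblasts and 1.05 in neurons, against 6.71 and 7.46 for lab itself. Farther to the left, 3, 4, 2 and 0 of the 10 flanking genes were above 2 times the median gene in type I, brat RNAi, brat numb RNAi neuroblasts and neurons, up to 3.2 with brat RNAi. To the right of Antp the nearest gene, Sodh-1, is 53107 bases away and was at 4.30 and 7.58 times, and CG1988, at 62947 bases, at 2.96 and 6.37. The next gene, CG1105, was at 1.05 and 2.05. Inside the span, the homeobox genes zen (6.90), zen2 (9.73), bcd (4.59) and ftz (4.48), which act in egg and early embryo, were covered in type I neuroblasts. Of the 21 further genes of the span 15, 14, 13 and 19 were above 2 times the median gene in type I, brat RNAi, brat numb RNAi neuroblasts and neurons. Genes at or near the median gene in type I neuroblasts were the 7SL RNA genes 7SLRNA:CR42652 (0.52) and 7SLRNA:CR32864 (0.56), the cuticle gene Ccp84Ab (1.02) and the non-coding gene pncr002:3R (1.18).

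**Figure D4:**
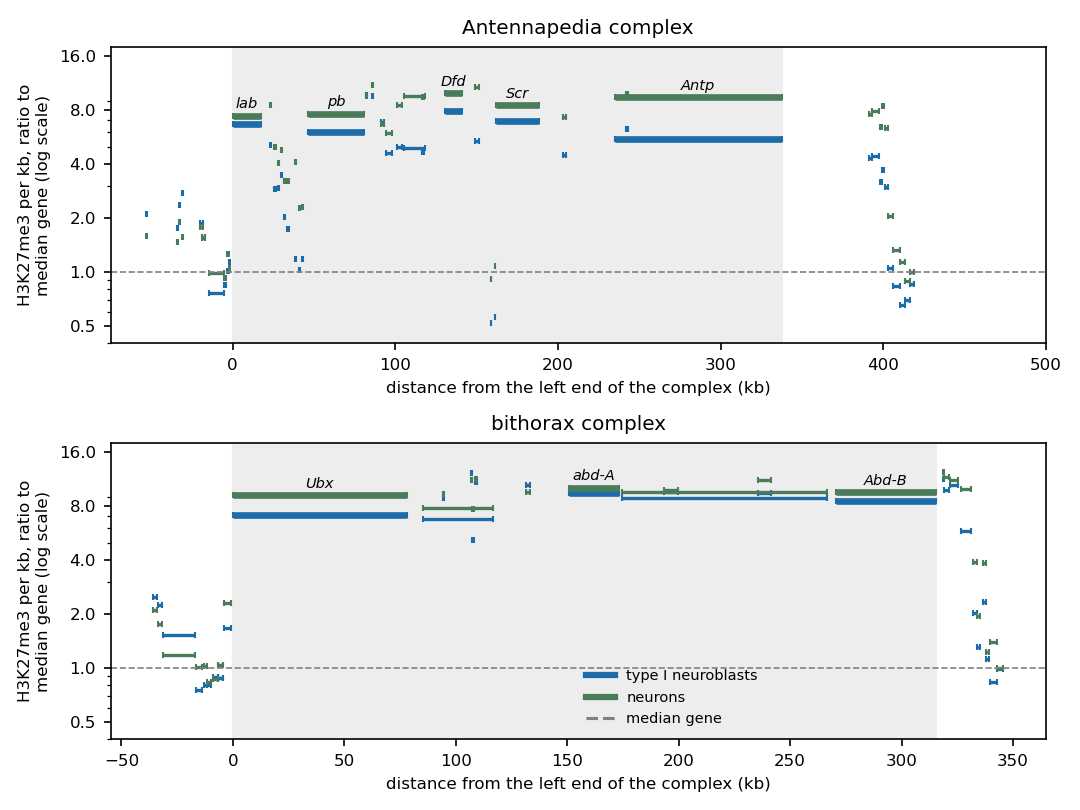
Mean H3K27me3 per kb of each gene as a ratio to the median gene (vertical axis, log scale) across both complexes and their 10 flanking genes on either side, by distance in kb from the left end of the complex (shaded), for type I neuroblasts (blue) and neurons (green), with bars as long as the genes and Hox genes drawn thick. Next to lab, agt is at 1.14 and 1.05, and next to Ubx, modSP is at 1.67 and 2.30, while VhaM9.7-d next to Abd-B is at 11.4 and 12.5 and Sodh-1 next to Antp at 4.30 and 7.58, in type I neuroblasts and neurons.

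H3K4me3 at the Hox starts was low, and Antp was above the other members outside brat RNAi. The windows are all 501 bases long, so levels can be compared between genes. Leaving Antp out, the 7 genes were at 0.268 to 1.09 times the median gene of their library, and 3 of their 56 values were above 1. Among the strongly H3K27me3-marked genes as a class the median was 0.573, 0.594, 0.731 and 0.684 times in type I, brat RNAi, brat numb RNAi neuroblasts and neurons, and 27% to 34.5% of them were above 1.

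Antp was the member with the most H3K4me3 in all 6 libraries of type I neuroblasts, brat numb RNAi and neurons, and in neither library of brat RNAi. Its level was 20.3 and 32.9 CPM in type I neuroblasts, 6.49 and 15.7 with brat RNAi, 38.0 and 47.6 with brat numb RNAi, and 12.7 and 22.1 in neurons. Both brat RNAi libraries were below both type I libraries, and both brat numb RNAi libraries were above all other 6, while neurons overlapped with type I neuroblasts and with brat RNAi. Against the median gene of the library Antp was at 1.91 and 2.36 times, 0.582 and 0.690, 1.72 and 3.47, and 1.15 and 1.08 in the same order. On this scale type I neuroblasts and brat numb RNAi overlapped, and brat RNAi was the 1 group below the median gene. These values rest on 147 and 371 reads, 64 and 49, 211 and 472, and 93 and 152 reads. Means were 26.6 ± 8.94, 11.1 ± 6.54, 42.8 ± 6.78 and 17.4 ± 6.62 CPM (SD, n = 2), and between 42.0% and 65.1% of all genes had a higher mean, so that Antp was a gene of middle rank. Its level was still low, as the gene at the 75th percentile was at 15.2, 9.09, 7.61 and 9.04 times the median gene in the same order. Of the strongly H3K27me3-marked genes, 23.3%, 45.1%, 19.2% and 29.7% were above Antp.

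**Figure D5:**
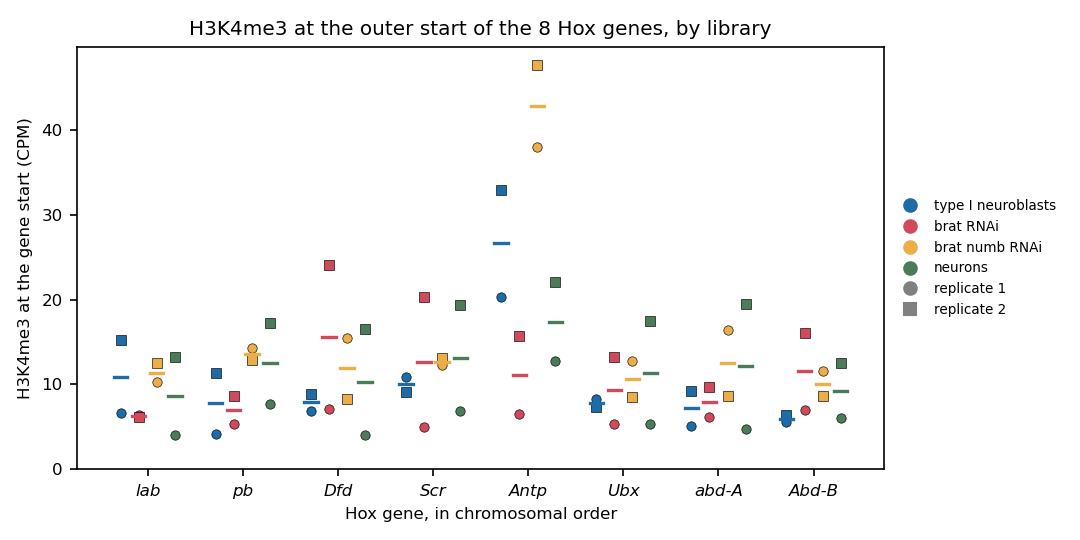
H3K4me3 in the window at the start of each Hox gene (TMM-scaled CPM, vertical axis), with 1 point per library and a bar at the group mean. Antp lies at 6.49 to 15.7 with brat RNAi and at 38.0 to 47.6 with brat numb RNAi, and the other 7 genes lie between 3.96 and 24.1.

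The test did not call Antp. Across the 4 groups its edgeR adjusted p was 0.664. In brat numb RNAi against brat RNAi its log2 fold change was 1.97 (SE 0.75), with an edgeR adjusted p of 1.00. With type I neuroblasts as the base, the value was -1.28 (SE 0.74, adjusted p = 0.804) with brat RNAi and 0.68 (SE 0.72, adjusted p = 0.639) with brat numb RNAi. For neurons it was -0.62 (SE 0.72, adjusted p = 0.795) against type I neuroblasts, 0.67 (SE 0.74) against brat RNAi and -1.30 (SE 0.73, adjusted p = 0.757) against brat numb RNAi. At a single SBa code the log2 ratios of Antp had these same signs: -1.61 for brat RNAi against type I at code 27, 1.58 for brat numb RNAi against brat RNAi at code 68, and -0.66 and -0.57 for neurons against type I neuroblasts at codes 27 and 51. The groups with the most H3K4me3 at Antp, type I and brat numb RNAi neuroblasts, were those in which it had the smallest share of H3K27me3 among the Hox genes, and with 4 groups no relation between the marks was tested.

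The other anterior genes were low throughout. H3K4me3 of lab was 6.63 and 15.2 CPM in type I neuroblasts, 6.39 and 6.10 with brat RNAi, 10.3 and 12.5 with brat numb RNAi, and 3.96 and 13.2 in neurons, and that of pb 4.14 and 11.4, 5.27 and 8.67, 14.2 and 12.8, and 7.66 and 17.3. In CPM both genes were higher in both brat numb RNAi libraries than in both brat RNAi libraries. As a ratio to the median gene lab overlapped, at 0.463 and 0.912 with brat numb RNAi and 0.573 and 0.268 with brat RNAi. Dfd was at 6.90 and 8.88, 7.09 and 24.1, 15.5 and 8.27, and 3.96 and 16.6 CPM, and Scr at 10.9 and 9.14, 4.97 and 20.2, 12.3 and 13.1, and 6.83 and 19.3. The wide pairs of Dfd and Scr with brat RNAi come from the libraries of 10707815 and 2461222 reads, the second being the smallest of the 16.

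The bithorax genes gave no separation beyond brat RNAi or brat numb RNAi against type I neuroblasts. Ubx was at 8.29 and 7.28 CPM in type I neuroblasts, 5.37 and 13.2 with brat RNAi, 12.8 and 8.47 with brat numb RNAi, and 5.33 and 17.4 in neurons. The gene abd-A was at 5.11 and 9.23, 6.18 and 9.64, 16.4 and 8.57, and 4.78 and 19.5, and Abd-B at 5.52 and 6.39, 6.99 and 16.1, 11.5 and 8.57, and 6.01 and 12.5. In CPM Abd-B was higher in both libraries of both RNAi groups than in type I neuroblasts, Ubx was higher in both brat numb RNAi libraries, and abd-A overlapped in every pair of groups. As a ratio to the median gene Ubx overlapped, at 0.577 and 0.618 with brat numb RNAi and 0.779 and 0.522 in type I neuroblasts.

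For H3K4me3 edgeR called 0 of 8 Hox genes in every comparison, and so did DESeq2. Among all genes DESeq2 called from 7 between type I and brat numb RNAi neuroblasts to 603 between neurons and brat RNAi. Over all 14185 genes tested edgeR called 2.05% across the 4 groups. It called 0.451%, 2.12% and 2.21% when neurons were set against type I, brat RNAi and brat numb RNAi neuroblasts. Among the neuroblast groups it called 0.0987% for brat RNAi against type I, and 0% for brat numb RNAi against either of the others. At an unadjusted p under 0.05 there was 1 Hox gene, Antp, in brat numb RNAi against brat RNAi (1.52% of all genes) and across the 4 groups (7.35%). There were 0 in neurons against type I neuroblasts (7.23%), brat RNAi (7.19%) and brat numb RNAi (8.18%), and 0 where type I neuroblasts were set against brat RNAi (5.52%) or brat numb RNAi (3.26%).

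Counted by libraries that did not overlap in CPM, 5 Hox genes (pb, Scr, Antp, Ubx and Abd-B) were higher with brat numb RNAi than in type I neuroblasts, beside 21.1% of all genes. As a ratio to the median gene, pb, Scr, Antp and Ubx overlapped between these groups. On that scale Abd-B was barely higher, at 0.520 and 0.625 against 0.519 and 0.459. With brat RNAi 1 (Abd-B) was higher, beside 21.8%, and 2 (lab and Antp) were lower, beside 21.6%. Between the RNAi groups 3 (lab, pb and Antp) were higher with brat numb RNAi, beside 10.2%, but lab overlapped as a ratio to the median gene. Antp alone was lower in neurons than with brat numb RNAi, beside 11.1%. Median log2 fold changes of the 8 genes were 0.46 for neurons (all genes 0.24), 0.17 with brat RNAi (-0.02) and 0.63 with brat numb RNAi (0.27), each with type I neuroblasts as the base, so part of the first and the last is a shift shared by all genes. The medians were 0.44 for brat numb RNAi against brat RNAi (all genes 0.01), 0.39 for neurons against brat RNAi (0.00) and -0.12 for neurons against brat numb RNAi (-0.11).

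Of the other genes inside the complexes, 1 of 30 was called for H3K4me3, beside 2.05% to 2.21% of all genes in the comparisons that called it. This was pncr002:3R, a non-coding gene of the Antennapedia complex, at 22.6 and 54.8 CPM in type I neuroblasts, 68.8 and 97.3 with brat RNAi, 62.7 and 86.2 with brat numb RNAi, and 6.29 and 14.1 in neurons. Both neuron libraries were below the other 6. It fell in neurons by 3.03 on the log2 scale against brat RNAi (SE 0.73, edgeR adjusted p = 0.00369) and by 2.87 against brat numb RNAi (SE 0.72, adjusted p = 0.00793). Its H3K27me3 was at 1.18, 1.53, 1.07 and 4.08 times the median gene in the 4 groups, below every Hox gene in each group.

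Among partners and targets of Hox proteins, few genes passed the test. Of 6 cofactors and partners, 1 was called for H3K4me3, beside 2.05% of all genes across the 4 groups and 2.21% in neurons against brat numb RNAi. It was the cofactor gene exd, whose product binds DNA together with Hox proteins. It rose in H3K4me3 in neurons against brat numb RNAi (log2 fold change 2.90, SE 0.72, edgeR adjusted p = 0.00712). Its levels were 246.9 and 28.9 CPM in type I neuroblasts, 145.5 and 50.4 with brat RNAi, 29.9 and 39.6 with brat numb RNAi, and 479 and 40.9 in neurons. The 3 high values are the 3 libraries of SBa code 27, a code that no brat numb RNAi library carries, and the part of the code in this call was not tested. The partner gene hth, which brings Exd into the nucleus, was not called. Its H3K27me3 was 2828 and 1969 CPM in type I neuroblasts and 13624 and 2877 CPM in neurons (log2 fold change 1.78, SE 0.62, adjusted p = 0.527), with both neuron libraries above both type I libraries.

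The trunk gene tsh, a zinc finger partner of trunk Hox proteins and a target of Antp in the embryo, had an H3K4me3 order of groups like that of Antp. It was at 36.3 and 37.4 CPM in type I neuroblasts, 11.8 and 11.2 with brat RNAi, 31.9 and 72.4 with brat numb RNAi, and 8.75 and 19.7 in neurons. It was not called, with log2 fold changes of -1.68 (SE 0.73, edgeR adjusted p = 0.779) between brat RNAi and type I neuroblasts and 2.18 (SE 0.74, adjusted p = 1.00) between brat numb RNAi and brat RNAi. Of 8 embryonic targets, 1 was called, the appendage gene Dll, which Ubx and abd-A repress in the embryonic abdomen. Its H3K4me3 differed across the 4 groups (edgeR adjusted p = 0.0216, beside 2.05% of all genes called), at 9.53 and 13.9, 86.5 and 50.8, 12.4 and 14.0, and 22.3 and 18.9 CPM. Its H3K27me3 was 95.7 and 102.7 CPM with brat RNAi against 371.8 to 1783 in the other 6 libraries, and the difference from type I neuroblasts (log2 fold change -3.12, SE 0.67, adjusted p = 0.621) was not called. With brat RNAi Dll thus had the most H3K4me3 and the least H3K27me3 of the 4 groups, whereas Ubx and abd-A were at 4.46 to 7.56 times the median gene for H3K27me3 in those libraries.

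The genes that act on the Hox complexes gave 0 calls in either mark, beside 0% of all genes in every H3K27me3 comparison and 0% to 2.21% in those of H3K4me3. This holds for 19 Polycomb group genes, 12 Trithorax group genes, 9 maternal, gap and pair-rule regulators and the 4 further homeobox genes of the Antennapedia complex, by edgeR in every comparison. At an unadjusted p under 0.05, and over the 6 pairs of groups, the Polycomb genes gave 0 to 2 for H3K4me3 and 1 to 7 for H3K27me3, and the Trithorax genes 0 to 2 and 0 to 3. The regulators gave 0 or 1 for H3K4me3 and 0 for H3K27me3, and the 4 homeobox genes gave 0. At this unadjusted edgeR threshold 1.52% to 8.18% of all genes passed for H3K4me3 over the same pairs, and 2.96% to 22.9% for H3K27me3. Among the Polycomb genes the largest value between neurons and type I neuroblasts was that of esc, a PRC2 subunit gene, in H3K4me3 (log2 fold change -1.86, SE 0.69, adjusted p = 0.277), which was at 203 ± 16.1 CPM in type I neuroblasts and 56.0 ± 27.2 CPM in neurons (SD, n = 2). The gene Psc, a PRC1 subunit gene, had the largest value in H3K27me3 in that comparison (1.52, SE 0.48, adjusted p = 0.527).

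The Hox genes varied together over the 16 libraries. With each mark centred on its mean, log2 CPM of the 28 pairs correlated at r = 0.598 to 0.964 with a median of 0.849. Scr and Ubx, of different complexes, were the closest pair, and Antp was in both of the 2 lowest, with Dfd (0.598) and Abd-B (0.599). The points share library and depth, and these values are a description over 16 libraries that include both marks. Outside the complexes, the genes most like each member were lbl for lab (0.975), rib for pb (0.971), slou for Scr (0.920), trh for Ubx (0.948) and CG15485 for abd-A (0.982). For Antp they were CG11426 and Dr, both at 0.950. For Dfd they were CG17325 and CG42305, which share 1 gene model (0.965), and for Abd-B CG3841 (0.965), followed by Ahcy89E of its own flank (0.964). Except at Scr and Ubx, the most alike gene outside the complexes was closer to the member than any other Hox gene was.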

How the data were processed

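H3K4me3 and H3K27me3 MNase ChIP-seq of isolated larval brain cells was read from 16 tables. The deposited values are counts, whole numbers of reads per gene with no normalization. The submitters' processing notes name bedtools 2.25.0, Bowtie2 2.2.4, deepTools 2.5.0.1 and build dm3, with no role, and counting settings are not given in the sources used here. Input was not subtracted from the counts, and the 14 input samples were not analysed here.

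The tests used edgeR 4.0.16 in R 4.3.3 (robust quasi-likelihood test, TMM scaling, low-count filter by group, all 8 libraries of a mark, 4 residual degrees of freedom), adjusted by Benjamini-Hochberg over 14185 genes (H3K4me3) and 14182 (H3K27me3), all 8 Hox genes among them. Levels are TMM-scaled CPM, and the SE is the absolute log2 fold change over the square root of F. DESeq2 1.42.0 was an alternative, with other scalings, no filter, fits of 2 groups, terms for replicate number or SBa code, and each library left out. The script was tested on simulated data.

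Named were the 8 Hox genes, genes inside both complexes, 10 flanking genes a side as a group, the 3 most alike genes of each member, brat and numb, and of each list up to 4 called genes or 2 with the largest values. The Hox genes and lists were chosen with earlier results of these data known. Genes named for high or low values at the complexes' edges and inside were chosen after their values were seen, as was Dll with its H3K27me3. Of the list entries, nSyb was not matched. With no strand stated, reads of overlapping genes such as Antp and CG43252 cannot be told apart.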

Additional observations from a re-analysis of the deposited data

How the results depend on the processing

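For H3K4me3, 115 of 118 alternative counts of called Hox genes were 0, as reported. A term for SBa code, with 1 residual degree of freedom, gave 1 across the 4 groups (Antp, with 6949 genes called in all) and 1 between the RNAi groups (Dfd, lower, with 3815 called). For H3K27me3, 110 of 111 counts were 0. The SBa term could not be fitted there. Leaving out 1 library gave 0 in every H3K4me3 comparison and 0 in every H3K27me3 comparison except neurons against brat numb RNAi (0 to 2). Within the strongly marked genes the counts were 0 to 2 across the 4 groups, for brat RNAi against type I neuroblasts and for neurons against brat RNAi, 0 to 3 for neurons against type I neuroblasts, 0 to 1 between the RNAi groups and for neurons against brat numb RNAi, and 0 with brat numb RNAi set against type I neuroblasts. DESeq2 gave 1 there in neurons against brat numb RNAi. The highest count of the class fits across the 4 groups (Abd-B and Antp) came without replicate 2 of the neurons. That fit had a single neuron library and called many other genes of the class too. Replicate numbers do not pair the libraries of all 4 groups in 1 way. Differences between replicates correlated across genes at r = 0.473 to 0.763 among type I neuroblasts, brat RNAi and neurons. With brat numb RNAi they correlated at -0.673 to -0.335. The replicate block called 0 Hox genes in every comparison, and with the brat numb RNAi numbers crossed, chosen after seeing the data, 1 for H3K4me3 across the 4 groups (Antp, with 3079 genes called). Signs of single fold changes held in 716 of 816 alternatives for H3K4me3, 683 of 768 for H3K27me3 and 525 of 576 within the strongly marked genes, and at Antp all 17 for H3K4me3 in brat numb RNAi against brat RNAi were positive. Scaling to library totals moved the H3K4me3 median of all genes in brat numb RNAi against type I neuroblasts from 0.27 to 0.83. No Hox gene was called in the main fits, so there was no main call to reverse. For H3K27me3 over all genes, every Hox gene changed sign in some alternative in each neuron comparison. The smallest H3K4me3 library and 49 to 472 reads at Antp limit precision, and a Hox gene not called is not shown to be alike between groups. The cause of the calls that appeared was not tested.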
